A study of Glycine max with 4 samples.

Results

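Chromosome 13 carried the densest set of binding sites mapped for the GLYMA.07G038400 protein among the 20 soybean chromosomes, and its sites were sparse at its start and dense over its centre and its other end. On the other 19 chromosomes the central part was the sparser one. The sites are the peaks that lie on the sequence named Chr13 in either peak list, 2260 of 31090 in ChIP replicate 1 and 1823 of 25502 in ChIP replicate 2. A site is called shared where a replicate 1 peak overlaps a replicate 2 peak by at least 1 bp, which held for 1613 sites on chromosome 13 out of 22386 in the whole genome.

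The data are ChIP-seq data, in which chromatin is crosslinked and sheared, the DNA attached to 1 protein is pulled down by an antibody, and the recovered fragments are sequenced. Embryos of the soybean cultivar Williams 82 at the early maturation stage were taken from seeds that measured 6 to 7 mm. The series holds 4 samples, which are 2 ChIP replicates and an input control of total chromatin for each, all from the same tissue, stage and cultivar. The ChIP samples were precipitated with an antibody against a peptide at amino acids 188 to 202 of the protein, and the inputs received no antibody. The labels call the replicates biological but do not say whether they came from separate plants. No sample lacking the protein serves as a control, so DNA that the antibody recovers from another source cannot be told apart from bound DNA.

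Each peak name contains GRF5, a name left unexplained in the labels. Among plant proteins this usually denotes the growth-regulating factors, which are transcription factors with QLQ and WRC domains that act with GIF co-activators and are known for promoting cell proliferation in growing organs. Soybean chromosomes typically have gene-rich ends and a long, repeat-rich and gene-poor region around the centromere. Chromosome 13 is known as the carrier of the nucleolus organizer region, where the ribosomal RNA genes lie in an array. The genome sequence and gene models behind these coordinates were not used here, so the sites are given by position, without genes or sequences. Coordinates are 1-based, and the assembly they refer to is not named in the sources used here. The length of a chromosome is taken as the end of its last peak, which makes chromosome 13 45.7 Mb long, the 14th longest of the 20.

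Chromosome 13 held more peaks than any other chromosome in both replicates. Replicate 1 had 49.4 peaks per Mb on it, where the other 19 had 24.99 to 44.5. Replicate 2 had 39.9 per Mb, against 19.8 to 35.7 elsewhere. Shared sites lay at 35.3 per Mb, with 17.7 per Mb on chromosome 18 and 31.5 per Mb on chromosome 11 as the lowest and highest of the others. Peaks of replicate 1 covered 2.11% of chromosome 13 and those of replicate 2 covered 1.42%, both also the highest of the 20. Chromosome 13 was chosen with its high density and its dense centre already known, so these ranks and those below are descriptions. No test was made, because 1 chromosome read out in 2 replicates gives no replicate chromosomes to test over.

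The sites were spread in a sparse start followed by a dense remainder. In 10 equal segments of 4.57 Mb, numbered from the first base, segment 1 held 24 shared sites and segment 2 held 4. Segment 3 held 43, segment 4 held 139 and segment 5 rose to 241. Segments 6 and 7 held 166 and 181, and segments 8, 9 and 10 held 280, 282 and 253. The last 7 segments therefore contained 1542 of the 1613 sites, or 95.6%. The same sparse start was present in each replicate. Segment 2 had 5 peaks in replicate 1 and 6 in replicate 2, and segment 8 had 400 and 311.

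**Figure D1:**
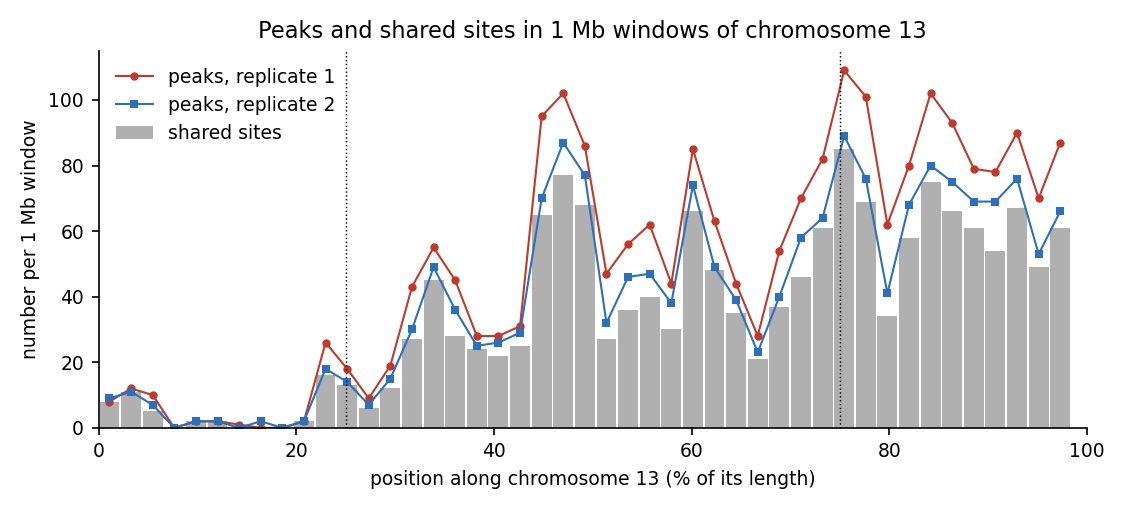
Number of peaks of replicate 1 (circles), peaks of replicate 2 (squares) and shared sites (bars) in each complete 1 Mb window of chromosome 13, against position as percent of its length, with dotted lines at the limits of the central 50%. Windows near the start hold few peaks in either replicate. The highest bar, of 85 shared sites, is a window that crosses the limit between the central 50% and the last 25%.

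In windows of 1 Mb the density changed over from sparse to dense between 10 and 15 Mb. The first 10 Mb held 30 shared sites, the next window held 16, and the window from 14 to 15 Mb held 27. From 14 Mb to the last complete window, which ends at 45 Mb, all 31 windows held at least 20 shared sites each. The longest such unbroken series on the other chromosomes ran over 19 windows, on chromosome 8, and the shortest over 8, on chromosomes 1 and 16. After 14 Mb the mean density was 48.4 shared sites per Mb, and before it was 5.50. Replicate 1 alone gave 67.8 and 7.79 peaks per Mb for these stretches, and replicate 2 gave 54.7 and 6.36. The limit of 14 Mb was placed after the counts had been seen.

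The centre of chromosome 13 was denser than its outer parts combined. The central 50% held 877 shared sites at 38.4 per Mb, and the outer 25% at each end together held 32.2 per Mb. Replicate 1 alone had 53.2 peaks per Mb in the centre and 45.7 outside it, and replicate 2 alone had 43.4 and 36.3. On the other 19 chromosomes the central density was 3.29 to 17.7 shared sites per Mb and the outer density 30.1 to 48.0, so the outer parts were the denser ones on each of them. The central value of chromosome 13 was above all 19, whereas its outer value was below 14 of them.

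**Figure D2:**
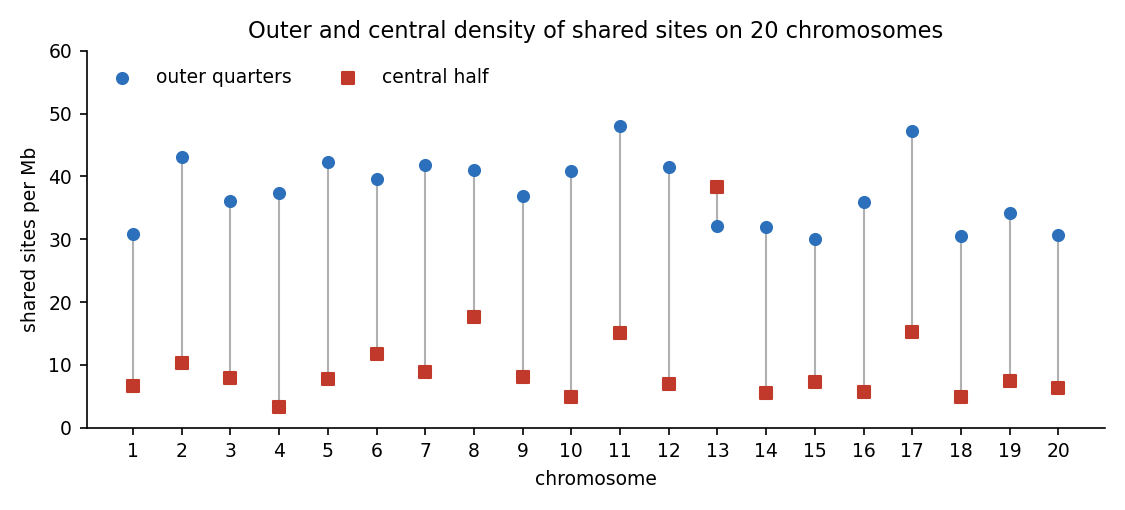
Shared sites per Mb in the outer 25% at each end (circles) and in the central 50% (squares) of each of the 20 chromosomes, joined by a line. Chromosome 13 has its square at 38.4 above its circle at 32.2, and the squares of the other 19 lie at 17.7 or below.

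The outer parts of chromosome 13 were unlike each other, which the joint value hides. Its first 25% held 51 shared sites at 4.46 per Mb, and its last 25% held 685 at 59.9 per Mb. Among the 20 chromosomes its first 25% was the sparsest first 25%, and its last 25% the densest last 25%. The first 25% of chromosomes 17 and 11 was denser still, at 66.2 and 63.0 per Mb. The ratio between the denser and the sparser end was 13.4 on chromosome 13 and 1.02 to 4.40 on the others. The first 1 Mb of chromosome 13 held 8 shared sites, where the first 1 Mb of the others held 30 to 62. Its last complete window held 61, within the range of 13 to 64 found on the others. The name of a chromosome that is dense in its centre thus fits the counts, but the description by segments is of a chromosome sparse at 1 end and dense over the centre and the other end.

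The sparse stretch itself was within the range of the other chromosomes in its number of sites and outside that range in its place. The 10 Mb with the fewest shared sites lay at the very start of chromosome 13 and held 30 sites. On the other chromosomes the sparsest 10 Mb held 12 to 63 sites. Its midpoint was at 10.9% of the length on chromosome 13, and between 31.5% and 67.7% on the others. Counted by windows with under 10 shared sites, it was also short. The longest unbroken series of such 1 Mb windows covered 8 windows on chromosome 13, from 2 to 10 Mb. The window just before this series held 11 shared sites, and the windows from 10 to 14 Mb held 6 to 16. Among the others, chromosome 11 had a shorter series of 4 windows and the remaining 18 had longer ones, up to 27 windows on chromosome 10.

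Outside its sparsest 10 Mb, chromosome 13 had 44.3 shared sites per Mb, and the others had 20.9 to 41.8 outside theirs. When the sparsest 20 Mb were set aside in the same way, chromosome 13 had 53.1 per Mb and ranked 3rd of the 20, below the maximum of 57.7 on chromosome 11. The window of 20 Mb was added after the data had been seen. With windows of under 10 shared sites making up 22.2% of its complete windows, chromosome 13 had the lowest such share of the 20, the others having 26.5% to 59.6%.

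**Figure D3:**
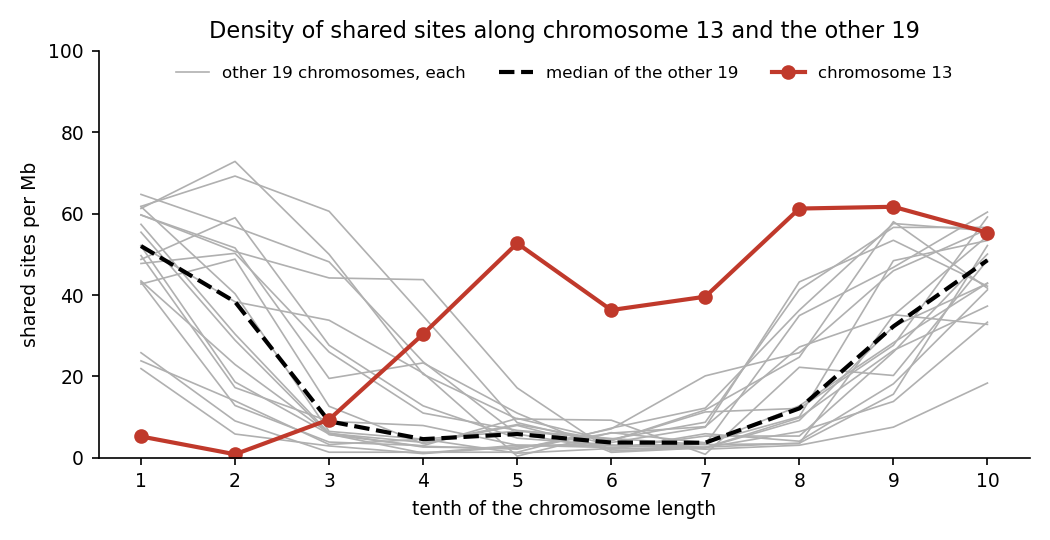
Shared sites per Mb in 10 equal segments of each chromosome, for chromosome 13 (circles), each of the other 19 (thin lines) and their median (dashed). Chromosome 13 lies below all others in segments 1 and 2 and above all others in segments 5 to 9.

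Segment by segment, chromosome 13 was the sparsest of the 20 in segments 1 and 2, with 5.25 and 0.875 sites per Mb against 21.9 to 64.7 and 5.85 to 72.8 on the others. In segment 3 it had 9.40, near the median of 8.97. It was the densest in segments 5 to 9. In segment 5 it had 52.7 sites per Mb and the others 0.412 to 17.2. In segment 6 it had 36.3, and the highest of the others was 9.25. In segment 10 its 55.3 per Mb was exceeded on 5 others, and the 19 ranged from 18.4 to 60.4.

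Dense windows reached into the middle of the chromosome. Of the 45 complete windows of chromosome 13, 14 held at least 50 shared sites, and these 14 contained 58.9% of the sites in complete windows. Of the 14, 5 lay wholly inside the central 50%. On the other 19 chromosomes 146 of 891 windows held at least 50, and 7 of these were central, on 5 chromosomes. The densest window of chromosome 13 was 34 to 35 Mb, with 85 shared sites from 109 peaks in replicate 1 and 89 in replicate 2. It was followed by 21 to 22 Mb with 77 and by 38 to 39 Mb with 75. The 3 neighbouring windows from 20 to 23 Mb, next to the midpoint of the chromosome and picked out after the counts had been seen, held 210 shared sites. Their 283 replicate 1 peaks and 234 replicate 2 peaks gave 94.3 and 78.0 peaks per Mb. The highest central window on any other chromosome held 69 sites, on chromosome 17.

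Windows with no shared site numbered 4 on chromosome 13, all in its first 10 Mb. They were 3 to 4, 6 to 7, 7 to 8 and 8 to 9 Mb. Of these, 2 held no peak in either replicate. The number of such windows on the other chromosomes was 0 to 6.

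Gaps between neighbouring shared sites were concentrated at the same end. The longest ran for 4.30 Mb, from the summit at 5477539 to that at 9773602, and was the longest of all 20 chromosomes, the others having a longest gap of 1.01 to 3.70 Mb. The site on its left, at 5477098 to 5477700, had a fold enrichment of 5.11 in replicate 1 and 7.10 in replicate 2. The site on its right, at 9773381 to 9773875, had 14.1 and 8.82. Fold enrichment is the authors' value for each peak, that is, ChIP signal at the summit divided by the background that the peak caller expected there.

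The longest gap was not free of peaks. Replicate 1 had 1 peak in it, at 6010690 to 6010911, with a fold of 3.54 that rested on 15 fragments (95% exact Poisson interval 8.40 to 24.7). Replicate 2 had 2 peaks, neither of which overlapped it. The peak at 7328838 to 7329069 had a fold of 5.75 on 18 fragments (10.7 to 28.4). The other, at 7358818 to 7359511, had a fold of only 1.60 on 301 fragments over a background of 188. A background over 20 occurred at 4 more replicate 2 peaks of chromosome 13, with folds of 1.44 to 2.24 and no replicate 1 partner, and at 1 replicate 1 peak. Replicate 2 alone therefore left a longest gap of 2.41 Mb on chromosome 13, the 9th longest of the 20, and replicate 1 alone one of 3.76 Mb, still the longest.

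The next gaps were also near the start. The second ran for 2.07 Mb, from 2558960 to 4627587. Its left neighbour, at 2558649 to 2559228, had folds of 19.8 and 14.6, and its right neighbour, at 4627386 to 4627797, had 7.64 and 5.22. The third spanned 597 kb from 4798305 to 5395487 and contained no peak of either replicate. It lay between sites with folds of 7.54 and 5.14 on the left and of 3.70 and 5.02 on the right. The fourth spanned 431 kb from 1803190 to 2234040, and the fifth 393 kb from 13162112 to 13554741. The sites around both had folds between 3.82 and 8.29. Only the first 3 exceeded 500 kb, the lowest number of the 20 chromosomes, where the others had 7 to 19.

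Of the 71 gaps over 100 kb on chromosome 13, 27 lay in the first 14 Mb and held 67.3% of their summed length. After 14 Mb the longest gap was 275 kb. All gaps over 100 kb made up 39.8% of the chromosome, against 45.8% to 68.5% of the others. Within the central 50% of chromosome 13 the longest gap was 393 kb, and the longest central gap on the others was 1.01 to 3.70 Mb.

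Typical spacing was short. The median distance between neighbouring shared sites on chromosome 13 was 11070 bp, and the middle 50% of distances ran from 2904 to 28675 bp. Medians on the other chromosomes ranged from 10093 to 16873 bp, and 4 of them were shorter than on chromosome 13. In its central 50% the median spacing was 11744 bp and in its outer parts 10343 bp. The corresponding medians over all spacings of the other 19 were 24896 and 10850 bp. The outer value of chromosome 13 joins unlike ends, with a median of 70223 bp in its first 25% and of 9243.5 bp in its last 25%. Spacings over 100 kb made up 5.48% of the central spacings of chromosome 13 and 25.03% of the central spacings of the others. Spacings of up to 2 kb made up 16.8% and 15.6%.

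**Figure D4:**
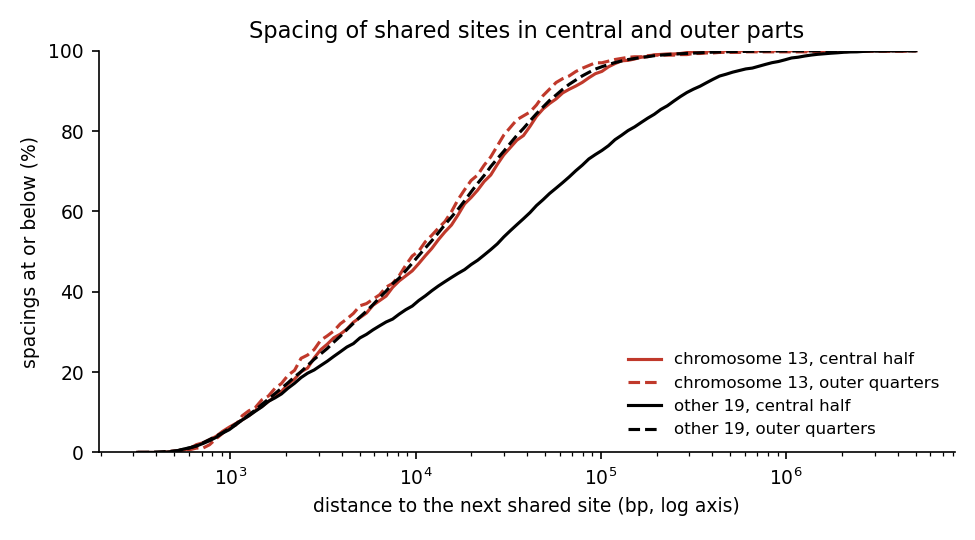
Cumulative share of spacings between neighbouring shared sites, on a log axis in bp, for the central 50% (solid) and the outer 25% at each end (dashed) of chromosome 13 and of the other 19 pooled. Both lines of chromosome 13 run beside the outer line of the others, and the central line of the others is displaced to longer spacings, with a median of 24896 bp. The outer line of chromosome 13 pools its first 25%, with 51 shared sites, and its last 25%, with 685.

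On chromosome 13, 31.5% of the shared sites had another within 2 kb, which is within the range of 25.8% to 32.6% on the others. These 508 sites formed 226 runs, in which each site is at most 2 kb from the next. Most runs were pairs, with 183 of 2 sites, 34 of 3, 6 of 4, 2 of 5 and 1 of 6. The run of 6 spanned 6.84 kb in the dense middle of the chromosome, with summits from 21345555 to 21352396. Its strongest site, at 21350380 to 21351221, had folds of 21.8 in replicate 1 and 18.2 in replicate 2. The other 5 had folds between 3.63 and 8.26 in both replicates. The first site of the run was 1239 bp wide in replicate 1 and 304 bp wide in replicate 2.

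A run of 5 in the same stretch spanned 4.42 kb from 20456757 to 20461178. Its outermost sites were its strongest, with folds of 11.9 and 9.82 on the left and of 16.1 and 8.41 on the right. Between them lay sites of 4.27 to 8.07. The other run of 5 lay near the end of the chromosome, from 42031861 to 42036512. It had folds of 12.5, 22.8, 30.2, 5.57 and 22.1 in replicate 1, from left to right. Replicate 2 gave 6.25, 14.5, 23.3, 6.01 and 21.3 for the same sites. Both replicates placed the maximum at the site in the middle, at 42033524 to 42034120.

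The median strength of the sites of chromosome 13 was within the range of the other chromosomes. The median fold of the shared sites was 7.80 in replicate 1 and 6.86 in replicate 2, and the median of the lower of the 2 folds was 6.26 (interquartile range 4.77 to 9.14). On the other chromosomes the median lower fold was 6.11 to 6.57. A lower fold of at least 20 was reached by 65 shared sites of chromosome 13, which is 4.03% (95% Wilson interval 3.17 to 5.10), where 4.07% of the shared sites of all 20 chromosomes reached it. This number of strong sites was the highest of the 20 chromosomes, and the share ranked 11th. Among the 1000 strongest shared sites of the 20 chromosomes 71 were on chromosome 13, or 7.10%, and its part of all their shared sites was 7.25%. It held 7 of the 100 strongest and 1 of the 20 strongest.

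Along chromosome 13 the strength varied little between sparse and dense segments. In the 9 segments with at least 20 shared sites the median lower fold was between 6.00, in segment 3, and 6.46, in segment 1. The 4 sites of segment 2 had a median of 5.12. Over the 41 complete windows with a shared site, the number of sites and their median lower fold had a Spearman's rho of 0.08, as a description of windows that share 2 libraries. Strong sites made up 4.68% of the central sites (41 of 877, Wilson interval 3.46 to 6.28) and 3.26% of the outer ones (24 of 736, 2.20 to 4.81). These intervals overlap and cover counting error only. The outer share was the lowest of the 20 chromosomes, just below the 3.37% of chromosome 8, and the central share ranked 9th.

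The strongest sites occurred in both the centre and the dense end. The highest lower fold belonged to the site at 38570763 to 38571527, with folds of 46.7 and 45.2 and a mean of 46.0 ± 1.01 (SD, n = 2). It rested on 218 fragments in replicate 1 (exact Poisson interval 190 to 249) and on 153 in replicate 2 (130 to 179), and its summits were 8 bp apart. The site at 34273085 to 34274462 reached 57.4 and 42.8, with a mean of 50.1 ± 10.3 (SD, n = 2). The site at 35319735 to 35321299 reached 57.8 and 42.6, with a mean of 50.2 ± 10.8 (SD, n = 2), and both replicates placed its summit at 35320202. These 2 had higher means than the first, but the difference was within their spread between replicates.

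The site at 22332085 to 22333735, at 48.8% of the chromosome length, had folds of 36.9 and 38.0. A second site in the same dense stretch, at 22092880 to 22093915, had 35.2 and 30.5. The site at 23863010 to 23863716 had 32.6 and 38.7, and the site at 15463392 to 15464362, in segment 4, had 36.0 and 37.2. The site at 27539701 to 27540404 had 35.4 and 40.7. Near the start of the last 25%, the sites at 34492171 to 34492904 and at 34700168 to 34701580 had 35.7 and 43.3, and 35.5 and 33.5. Of these 10 sites, 5 were higher in replicate 1 and 5 in replicate 2. Their lower folds ran from 30.5 to 45.2, and that of the next site, at 11004195 to 11004949, was 29.4.

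The sparse start also had strong sites. In segment 1 the strongest shared site, at 2234703 to 2235789, had folds of 22.9 and 23.2. It rested on 99 and 80 fragments, and it overlapped 2 replicate 2 peaks. In segment 2 the strongest, at 4627386 to 4627797, had only 7.64 and 5.22, on 47 and 25 fragments. In segment 3 the site at 11004195 to 11004949 had 29.4 and 36.1. The weakest of these maxima outside segment 2 was thus that of segment 1, and segment 10 had a similar one at 42420735 to 42421502, with 29.6 and 24.0.

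**Figure D5:**
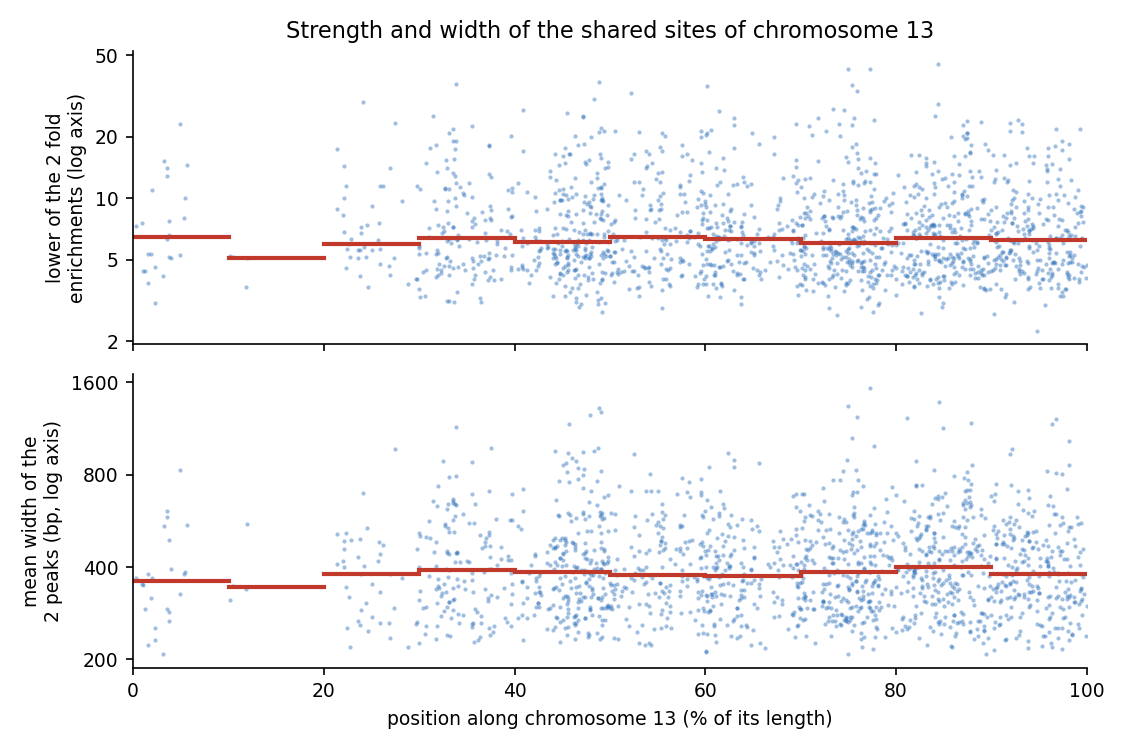
Lower of the 2 fold enrichments (upper panel) and mean width of the 2 peaks in bp (lower panel) of each of the 1613 shared sites against position as percent of the length of chromosome 13, on log axes, with the median of each segment as a bar. Points thin out at the start, while the bars stay between 5.12 and 6.46 and between 343 and 401 bp.

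The background under the sites is taken by the peak caller from the input. Recovered from the fold and p-value of each peak, it was lower at the sparse start in replicate 1. Segment 1 had a median of 3.78 fragments and segment 2, with 4 sites, 3.76, against 4.40 in each later segment. In replicate 2 the medians of the segments ran from 2.75 to 3.32. The median background over all shared sites was 4.40 fragments in replicate 1 and 3.04 in replicate 2. In the first 10 Mb it was 3.78 and 2.90, and after that 4.40 and 3.04. The median ChIP pileup, the number of fragments over the summit, was 33 and 28 in the first 10 Mb and 42 and 28 after it. The number of alignable bases in the first 10 Mb is not known here, and its part in the low count was not tested.

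The widths were also within the range of the other chromosomes. A shared site on chromosome 13 was a median of 437 bp wide in replicate 1 and 332 bp in replicate 2, with a median of 384 bp for the mean of both. The others had medians of 377 to 400 bp for this mean. In the 9 better filled segments the median ran from 361 bp, in segment 1, to 401 bp, in segment 9. Sites before 14 Mb had a median width of 352.5 bp and those after it 385.5 bp. Over the complete windows with a shared site, the number of sites and their median width had a Spearman's rho of 0.26. Wider sites were stronger ones. The weakest 407 of the 1613, with lower folds of up to 4.77, had a median width of 295 bp, and the strongest 403, with lower folds from 9.15, had 517 bp. Across sites, the lower fold and the width had a Spearman's rho of 0.67. Width and fold come from the same pileup, so this is a description of the peaks.

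The widest shared site by the mean of both replicates was the strong one at 35319735 to 35321299, with 1565 and 1508 bp. The second was at 38659908 to 38661253, with 1346 and 1417 bp, and had modest folds of 9.07 and 12.1. The third was the site at 34273085 to 34274462, with 1378 and 1308 bp. In replicate 1, 96 of the 1613 shared peaks were at least 800 bp wide. This number was not set against the other chromosomes. The widest shared peak of replicate 1, at 21900951 to 21903155, measured 2205 bp and overlapped 3 replicate 2 peaks. Of these, the one with the nearest summit measured 297 bp. It was named after its width had been seen. The narrowest shared site, at 1426313 to 1426534 in the sparse start, was 222 and 193 bp wide. The smallest widths in the 2 lists were 222 and 191 bp, so it lay at or near the lower limit. The next narrowest sites lay in segments 9 and 8.

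Recovery between replicates was close to that of the genome. Of the replicate 1 peaks on chromosome 13, 71.4% (Wilson interval 69.5 to 73.2) overlapped a replicate 2 peak, where 72.0% of the peaks on all 20 chromosomes did. Of the replicate 2 peaks, 1643 overlapped a replicate 1 peak, which is 90.1% (88.7 to 91.4), against 89.8% on all 20. In the 9 segments with at least 20 shared sites the recovered share was at least 65.9% for replicate 1 and 84.0% for replicate 2. Both minima were in segment 6, with Wilson intervals of 59.8 to 71.4 and 78.3 to 88.4. These lay below the shares of all 20 chromosomes, for the lowest of 9 segments. The sparse first 10 Mb had 81.1% (65.8 to 90.5) and 88.6% (74.0 to 95.5), from 37 and 35 peaks. The smallest overlap that made a site shared was 10 bp, between peaks at 44425379 to 44425779 and 44425198 to 44425388 with folds of 4.76 and 3.35. The closest replicate 1 peak left out, at 33033847 to 33034090 with a fold of 5.09, lay 24 bp from a replicate 2 peak with a fold of 4.02.

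Which sites were found again depended on strength. On chromosome 13 the 647 replicate 1 peaks without a partner had a median fold of 4.47 and the 1613 with one had 7.80. In replicate 2 the 180 without a partner had 4.75 and the 1643 with one had 6.83. None of the peaks without a partner exceeded a fold of 10. The strongest in replicate 1, at 36388385 to 36388777, had a fold of 9.86 on 47 fragments (exact Poisson interval 34.5 to 62.5). The strongest in replicate 2, at 21047553 to 21047824, had 7.78 on 30 fragments (20.2 to 42.8). All 544 replicate 1 peaks of chromosome 13 in the top 25% by fold, as set over the 20 chromosomes, had a partner, and so did all 436 such peaks of replicate 2. On the other 19 nearly all such peaks had one too, 99.8% in replicate 1 and 99.95% in replicate 2. In the bottom 25% of replicate 1 the share was 34.5% (30.7 to 38.5) on chromosome 13 and 38.3% (37.2 to 39.4) on the other 19. In the 25% above it chromosome 13 had the higher share, 63.0% (59.0 to 66.9) against 59.8% (58.6 to 60.9). In the bottom 25% of replicate 2 the shares were 76.3% (72.1 to 79.97) and 74.2% (73.1 to 75.3), so the direction was not the same throughout.

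The 2 summits of a shared site on chromosome 13 were close, in part by construction. Shared peaks overlap by definition and are paired by nearest summit. The median distance of the summits was 32 bp, with quartiles of 14 and 59 bp, and 92.5% were within 100 bp. Medians on the other chromosomes were 28 to 32 bp. At 95.2% of the sites the folds differed by at most 2-fold. Across the 1613 sites the folds had a Spearman's rho of 0.73, and on the other chromosomes it was 0.718 to 0.757. The log2 ratio of replicate 1 to replicate 2 had a median of 0.13 and an SD of 0.48. Among the weakest 407 sites its SD was 0.61, and among the strongest 403 it was 0.37. These sets are cut by the lower fold, which also enters the ratio, so part of this difference is built in. The 3 most discordant sites were all higher in replicate 1. The first, at 38630119 to 38630617, had folds of 12.2 and 3.30. The second, at 22421417 to 22421849, had 11.7 and 3.24, and the third, at 15168053 to 15168515, had 11.2 and 3.16. Their backgrounds were 3.11 to 4.12 fragments in replicate 1 and 5.47 to 5.97 in replicate 2.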

How the data were processed

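Per the submitters' processing notes, the tools were Bowtie 0.12.7, an aligner, and MACS2, a peak caller. The sources used here name neither the assembly nor the release of MACS2. The authors deposited 1 peak list for each ChIP replicate, not called on pooled samples, and the inputs enter through that calling. Each deposited fold is the linear ratio between ChIP and background at the summit. Significance was deposited as −log10 p-value and −log10 q-value, and the deposited score is 10 times the −log10 q in whole numbers (99.96% of replicate 2 peaks or more). A further deposited value gives the summit within the peak.

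Read totals are not known. Depth was recovered from each peak as the whole number of fragments k and background λ for which (k + 1)/(λ + 1) gives the fold and the Poisson probability of more than k fragments gives the p-value, which all peaks met within 0.58% of a step. This assumes the usual MACS2 formulas. The median peak rested on 34 fragments in replicate 1 and 26 in replicate 2. Wilson and exact Poisson intervals (95%) cover counting error only, since PCR copies are not independent molecules.

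Shared sites were placed at the replicate 1 summit and paired with the replicate 2 peak of nearest summit. Unplaced scaffolds were left out of comparisons between chromosomes. Sites are named by fixed rules: the 10 strongest by lower fold, the strongest of each segment, neighbours of the 5 longest gaps, the 3 longest runs, the 3 widest, the 3 most discordant and the strongest unshared peak of each list. Some further sites, among them the narrowest, were named outside these rules. Members, rules and lists were chosen with earlier results of these data known. The overlap and depth steps were tested on simulated data. The simulated depths were made with the assumed MACS2 formulas over a narrower range of backgrounds, so they cannot check those formulas. Alternatives covered overlap, peak threshold, length, division of the chromosome and each replicate alone. The software was Python 3.11.15 with pandas 2.3.3, scipy 1.17.1, numpy 2.4.6 and matplotlib 3.10.9.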

Additional observations from a re-analysis of the deposited data

How the results depend on the processing

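Chromosome 13 kept the highest density of shared sites of the 20 chromosomes in all 8 settings tried, the lowest outer minus central density in all 10, and the sparsest window nearest to the start in all 6. Of 45 alternatives, 24 moved a value by less than the spread between replicates (for recovery, by less than its Wilson interval), and none turned the direction of the outer minus central density of −6.17 per Mb. With a −log10 q of at least 10, which uses fewer peaks by construction, the density was 22.96 per Mb, the outer minus central density −4.11 per Mb, the median spacing 17715 bp, the median lower fold 8.03, and the recovery 64.94% for replicate 1, which ranked last of the 20, just below the next lowest of 64.96%, and 92.4% for replicate 2. At that threshold the longest gap was 5.15 Mb and ranked 2nd. Division into 3 equal parts, the outer 2 against the central one, gave −8.79 per Mb. The mean of the 2 folds gave a median of 7.27. Reciprocal overlap of 50% gave a recovery of 67.5% and 83.7%, the latter ranking 1st (the others reached at most 82.8%), and summits within 100 bp gave 66.0% and 81.8%. The sparsest window had its midpoint at 12.03% of the length with 5 Mb and at 21.9% with 20 Mb, as its size sets. All peaks of 1 replicate, leaving out the other, gave a density of 39.9 to 49.4 per Mb, an outer minus central density of −7.52 to −7.13 per Mb, a median spacing of 7584 to 9451 bp, a longest gap of 2.41 to 3.76 Mb (2.41 without replicate 1), and a median fold of 6.86 to 7.80. The cause of the changes at other thresholds was not tested. The window of 20 Mb and a run without peaks whose background was over 20 were added after seeing the data. No paired analysis was possible because ChIP and input could not be compared peak by peak: only ChIP peak lists were used. Genes and sequences at the sites were not analysed here.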
